A study of Mus musculus with 153 samples.

Results

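The genes described here encode the proteins of the cytosolic ribosome in mouse dorsal hippocampus. They were taken by symbol: 86 of the 25103 genes in the count tables had a symbol of the Rpl, Rps, Rplp or Rpsa pattern, and the 81 with a mean of at least 1 CPM (counts scaled to the same total in every library) over the total lysates were kept. Of these 81, 46 belong to the large subunit, 32 to the small subunit and 3 to the stalk. Rpl10l, Rps27rt, Rpl26, Rpl39l and Rpl3l fell below the minimum, and Rps3a1 lies outside the pattern. No value of a comparison was used to choose them. The Camk2a table of the 15 min set did not list Rpl37rt and Rps4l, so 79 members were tested there.

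The ribosome reads mRNA with its small subunit and joins amino acids in its large subunit, and each ribosomal protein holds or guides a part of the ribosomal RNA. The stalk proteins Rplp0, Rplp1 and Rplp2 (P0, P1 and P2) form an arm of the large subunit that recruits translation factors. Many mRNAs of ribosomal proteins begin with a C followed by a run of C and T bases, the 5′ terminal oligopyrimidine (TOP) tract, through which mTOR signalling and Larp1 set how much of the family is translated. In neurons, ribosomal proteins are made in the cell body and also from mRNAs in dendrites and axons, and protein synthesis is needed to form lasting memory.

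Mice carried Camk2a.Cre, Pvalb.Cre or Sst.Cre together with the TRAPfl allele, which is expressed after Cre recombination, so all groups were transgenic. Camk2a-Cre acts in excitatory neurons, Pvalb-Cre in parvalbumin interneurons and Sst-Cre in somatostatin interneurons. In translating ribosome affinity purification (TRAP) a tagged ribosomal protein of the marked cells is used to pull down their ribosomes with the bound mRNA, here called purified RNA. The total lysate holds RNA of all cells of the tissue. Controls stayed in the home cage, box animals entered a new context without shock, and shock animals were conditioned with a shock there, in sets labelled 15 min and 60 min. The labels give neither age nor sex, and do not name the tagged protein. TRAP alleles often tag Rpl10a, and whether transgene reads were counted as Rpl10a was not tested.

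The 151 libraries used, 75 lysates and 76 purified, fell into 36 groups of 3 to 6 with 9043042 to 397228206 counts each. Each line's own markers were enriched in most purified groups. An own-class score was computed as the log2 enrichment of a line's marker genes over those of other cell types, relative to the lysates. It averaged 3.33 to 4.49 in the Camk2a and Pvalb groups. The lowest of these means was that of the Pvalb shock libraries at 15 min, which ran from 1.82 to 5.09. The home cage libraries of that set ran from 3.76 to 4.27. In the Sst line the score averaged 4.0 for home cage, 2.82 for box and 0.31 for shock libraries of the 15 min set. In the Sst 60 min set it was 2.04, 2.71 and −0.60, and all 4 shock libraries lay between −0.95 and −0.31. These 4 libraries went against the line's label, and in the 15 min set the scores ran from −0.53 to 4.86 in box and from −2.58 to 4.36 in shock libraries. The counts of libraries also leaned toward GC-rich or GC-poor genes to different degrees, given below as a GC slope: the change of a gene's log2 CPM, relative to the mean over libraries, per 10 percentage points of exon GC content. In bulk RNA a lower level per cell and a smaller share of cells of a type cannot be told apart.

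The sequence around the annotated start was available from RefSeq (GRCm38.p6) for 60 of the 81 members. The following stretches hold the 12 bases before the annotated start and the first 18 bases from it, 5′ to 3′ on the gene's strand. Capitals mark the longest run of C and T that touches the window from 5 bases before to 10 bases after that start. The first 4 show long runs, and the other 4 show members whose annotated start holds a short one.
Rpl27a, chr7:109519183-109519212, plus strand: ttcgtgagCTCCTCCCTTTTCCCTTTCTgc
Rpl15, chr14:18270969-18270998, minus strand: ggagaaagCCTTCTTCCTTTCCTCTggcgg
Rplp2, chr7:141447639-141447668, plus strand: gtcagcgTCTTCCTTTCgccgccggacgcc
Rps6, chr4:86857350-86857379, minus strand: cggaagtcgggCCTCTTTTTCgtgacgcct
Rplp0, chr5:115559455-115559484, plus strand: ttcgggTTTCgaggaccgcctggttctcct
Rps15, chr10:80292419-80292448, plus strand: ggcagagCTCgcgataactgcgcaagcgca
Rps3, chr7:99483692-99483721, minus strand: gcaagggTCgccgcgctgcgcggcgtcatt
Rpl7l1, chr17:46782639-46782668, minus strand: aggctgcgcaagcgcagtagCTgaagcacc

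A run of 8 or more C and T bases, searched on the gene's strand only, was present for 26 of the 60 members (43.3%), against 3524 of 27025 genes with a sequence (13.0%). The median longest run was 7 bases for members and 4 bases for all genes, and the range among members was 2 to 21. The longest belonged to Rpl7a with 21 bases. A match is a feature of the letters at annotated starts, which may lie away from the start used in neurons.

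Levels in the lysates were compared between genes as mean CPM per kb of exon. Among the highest were Rplp1 at 283 CPM per kb, Rpl4 at 198, Rps29 at 183 and Rps15 at 161. At the low end, Rpl30 had 0.470, Rps27 1.28 and Rpl34 1.75 CPM per kb. Rpl10a, a protein of the L1 stalk at the tRNA exit side, had 8.06 CPM per kb. Much of the family's sequence recurs elsewhere in the genome: of the 75-base stretches of a member's transcripts, a median of 48.5% were also found in another gene or pseudogene. More than 50% recurred for 40 members, and none did for Rps3. For Rps27 the share was 98.5%, for Rpl5 92.5% and for Rpl10a 87.6%. The counting of reads with several origins was not given in the sources used here. Levels of members with high shares are therefore uncertain, and the part of read assignment in the low values of Rpl30, Rps27 and Rpl34 was not tested. The members most described here lie apart in the genome (GENCODE vM21 on GRCm38). Rplp0 spans chr5:115559467-115563727 on the plus strand, Rplp2 chr7:141447370-141451585 on the plus strand and Rpl18 chr7:45715457-45720836 on the plus strand. Rps4l lies at chr6:148354656-148355598 on the plus strand, and Rps4x at chrX:102184941-102189394 on the minus strand. Rpl10a lies at chr17:28328471-28331033 on the plus strand, and Rps27l at chr9:66946086-66949516 on the plus strand. In all, 15 members overlap the exons of another gene, among them Rpl13a, Rpl35, Rpl24, Rps10 and Rpl36al, and the library kit named in the labels does not mark strand.

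The family took a larger mean share of purified than of lysate counts in every line, set and condition except the Pvalb home cage libraries at 60 min. Mean shares in the lysate groups ranged from 0.56% ± 0.15 (SD, n = 5) in Sst home cage libraries at 60 min to 0.81% ± 0.06 (SD, n = 6) in the Pvalb home cage libraries at 60 min. Purified home cage shares were 1.33% ± 0.05 (SD, n = 3) at 15 min and 1.54% ± 0.32 (SD, n = 4) at 60 min in the Camk2a line. In the Pvalb line they were 0.99% ± 0.06 (SD, n = 4) and 0.81% ± 0.03 (SD, n = 6). Somatostatin purified home cage libraries had 1.2% ± 0.27 (SD, n = 4) and 1.0% ± 0.12 (SD, n = 5).

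**Figure D1:**
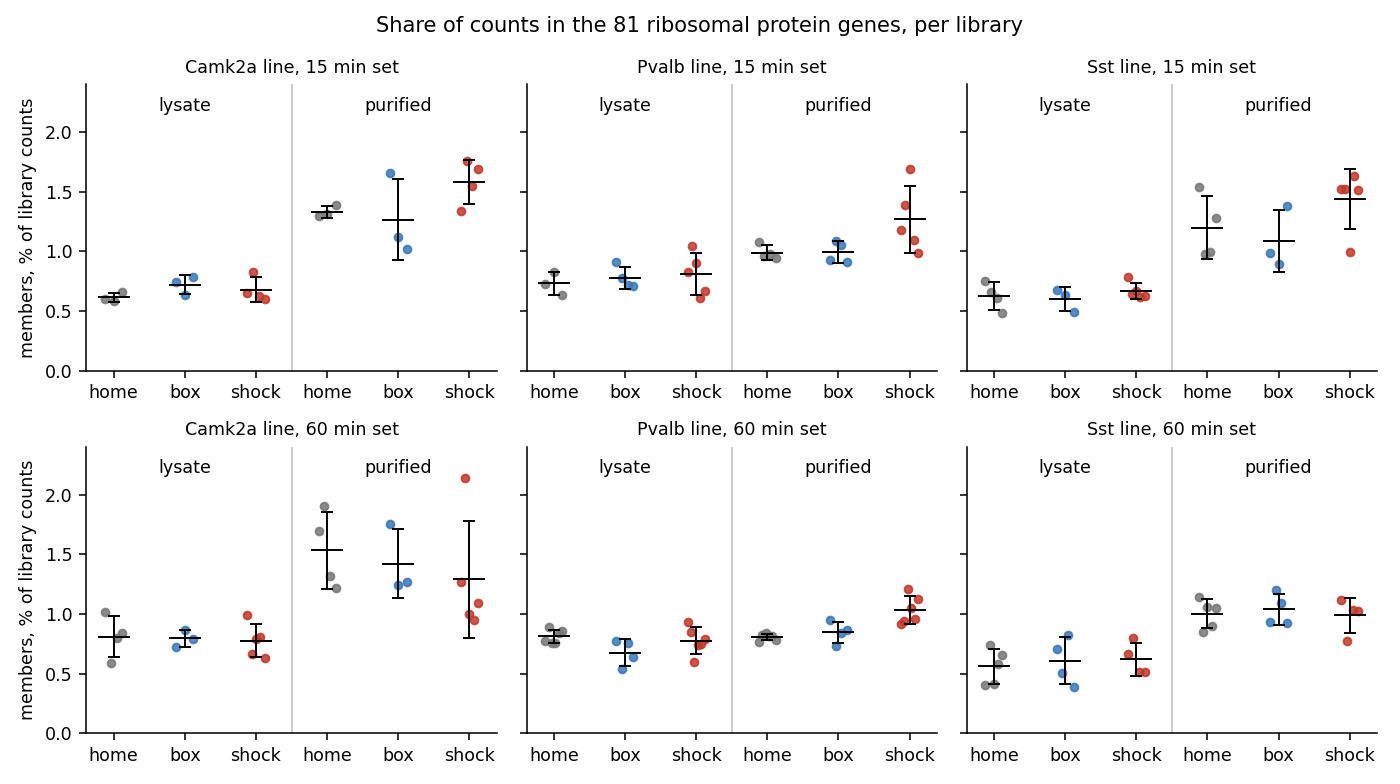
Share of each library's counts in the 81 members (vertical axis, percent) by fraction and condition, with 1 panel per line and set; points are libraries, bars the mean and SD. Purified libraries lie mostly above lysates, except in the Pvalb 60 min set, where the home cage groups overlap and the shock libraries reach 0.920% to 1.21%.

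Purified against lysate RNA was compared per line and set over all conditions, with edgeR's quasi-likelihood test and Benjamini-Hochberg adjustment over all genes tested. Nearly every member was enriched in Camk2a purified RNA: 77 of 79 at 15 min, where 22.9% of all genes were higher, and 80 of 81 at 60 min, where 22.2% were. None was lower in either set. The median member was 1.45 and 1.19 log2 units higher in purified RNA, beside medians of −0.14 and −0.26 over all genes tested. The 2 members not called at 15 min were Rplp0 and Rps27, and Rps27l was the 1 member not called at 60 min (log2 fold 0.01 ± 0.17, SE).

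In the Pvalb line the enrichment was smaller. At 15 min 69 of 81 members were higher (21.3% of all genes) and none lower, with a median of 0.66 against −0.15 over all genes. At 60 min 57 were higher (28.0%) and 4 lower (32.4%), with medians of 0.50 and −0.13. The 4 lower members included Rps19 (−0.35 ± 0.12, SE), whose human counterpart is mutated in Diamond-Blackfan anaemia, and Rps2 (−0.27 ± 0.10). The others were Rps3 (−0.24 ± 0.09), which lines the mRNA entry, and Rpl4 (−0.24 ± 0.07). With offsets that remove each library's trend with GC content and exon length, Rps19 was at −0.05 and Rps2 at −0.15. Neither then passed, while Rps3 (−0.23) and Rpl4 (−0.53) stayed lower. Rpl32, Rpl10, Rplp0 and Rpl41 passed as lower only with the offsets. In Sst purified RNA all 81 members were higher at 15 min (23.6% of all genes), with a median of 1.47 against −0.05. At 60 min 66 were higher (31.2%) and 4 lower (28.2%), with a median of 0.82 against 0.11.

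**Figure D2:**
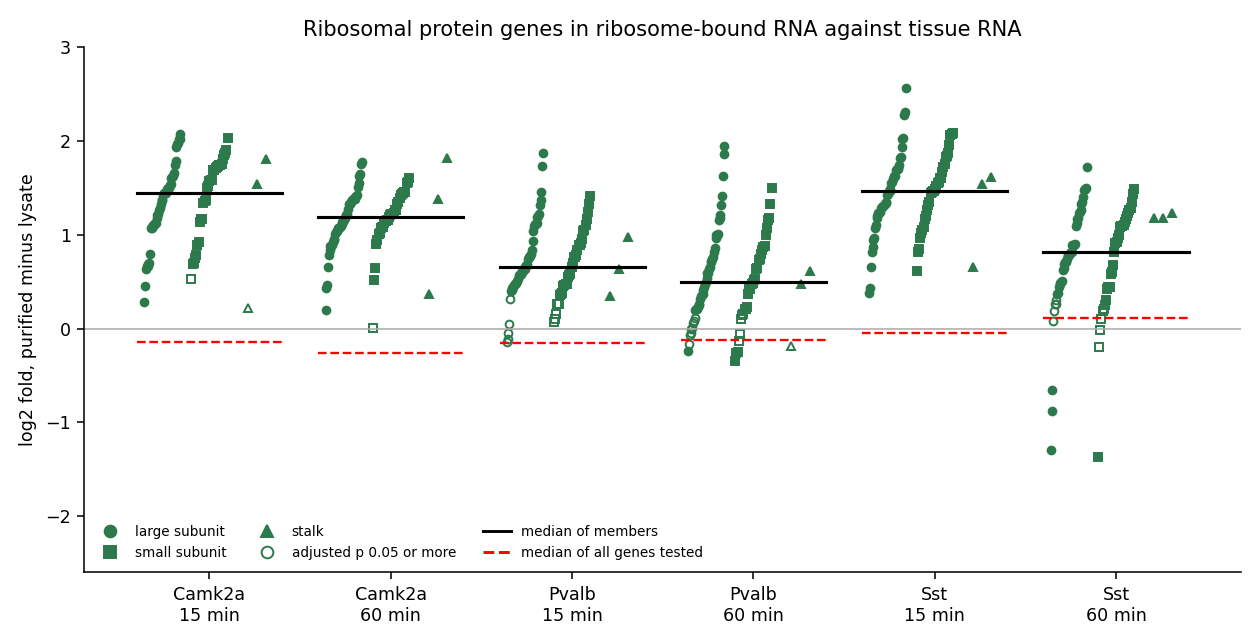
Log2 fold of purified over lysate RNA (vertical axis) for every member in each line and set (horizontal axis), by subunit; open symbols did not pass the test, black lines are the members' medians and red dashed lines the medians of all genes tested. The members' medians run from 0.50 in the Pvalb 60 min set to 1.47 in the Sst 15 min set.

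Over the lines and sets, 41 members were enriched in all 6, 68 in 5 or more, and 63 had a positive fold in each table that listed them. With GC and length offsets not all of these 41 passed in every set. In the Sst 60 min set Rps21 went from 0.42 to −0.16 with them and did not pass. Rpl35 went from 0.49 to −0.59 there and was then called lower (adjusted p = 0.00651, edgeR). The members also kept their order to some degree. Over the 81 members, Spearman's rank correlation of the folds was 0.88 between the Pvalb sets and 0.68 between the Camk2a sets (79 members), while the Sst 60 min set had −0.49 to 0.27 with the other tables. These are descriptions over genes that share libraries, depth and base composition. The folds in the Sst 60 min set rose with the members' GC content (Spearman's rank correlation 0.69), and those of the other tables did not (−0.48 to 0.09). Beside this, the Sst 60 min libraries had mean GC slopes of 0.62 to 0.70 in purified and −0.85 to −0.54 in lysate groups. The lysates were not uniform. Their single libraries ran from −1.36 to 0.56 in home cage, −1.37 to 0.52 in box and −1.38 to −0.16 after shock. Whether the GC lean gave these folds was not tested.

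Rpl38, a large-subunit protein known from its skeletal mutant phenotype, was among the most enriched members of the Camk2a line, 2.08 ± 0.18 (SE) log2 units at 15 min. In the home cage its 15 min lysates had 44.5, 45.6 and 54.1 CPM and its purified libraries 162, 148 and 186 CPM. In the home cage the fractions were far apart, and they did not overlap in the other conditions of that set either. In box they nearly met, with the lowest purified library at 86.7 CPM and the highest lysate at 84.1 CPM. At 60 min Rplp2 led with 1.81 ± 0.21, and the home cage lysates had 129, 48.3, 99.0 and 109 CPM against 318, 402, 235 and 206 CPM in purified libraries. Every purified library was higher than every lysate, and the library with the lowest lysate value shared its label with the highest purified one. Rplp0 of the same stalk was only 0.37 ± 0.10 higher at 60 min and 0.22 ± 0.13 at 15 min, where it did not pass the test (adjusted p = 0.167, edgeR). Rpl7l1, which resembles Rpl7 and is known from early ribosome assembly, stayed near 0 as well, at 0.29 ± 0.10 and 0.20 ± 0.08.

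Rpl39, at the exit tunnel, and Rpl23, near the contact with the small subunit, led the interneuron lines. Rpl39 was 1.88 ± 0.20 (SE) higher in Pvalb purified RNA at 15 min, 1.94 ± 0.23 at 60 min and 2.57 ± 0.27 in the Sst line at 15 min. Its Sst home cage lysates had 36.3, 22.1, 33.4 and 51.6 CPM at 15 min, and the purified libraries 164, 243, 215 and 106 CPM. The 2 fractions did not overlap. In the Sst 60 min set the same gene was lower in purified RNA, by −0.88 ± 0.35, with lysates at 88.2, 127, 119, 24.8 and 20.0 CPM and purified libraries at 29.6, 84.4, 29.3, 92.1 and 47.8 CPM. Here the fractions overlapped and the lysates split into 3 high and 2 low libraries. With GC and length offsets Rpl39 was at −0.55 in this set and did not pass (adjusted p = 0.187, edgeR).

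Rpl22l1, a paralog of Rpl22, went the same way as Rpl39: 1.63 ± 0.19 in the Pvalb 60 min set, 2.28 ± 0.25 in the Sst 15 min set and −1.30 ± 0.36 in the Sst 60 min set. Its Sst 60 min home cage lysates had 177, 353, 242, 73.3 and 54.7 CPM and its purified libraries 55.7, 198, 47.7, 230 and 126 CPM. Again 3 lysates were high and 2 low. Rps27l, a paralog of Rps27 that is induced by p53, had −1.37 ± 0.23 in that set, and Rpl15 had −0.66 ± 0.20. With offsets that remove each library's trend with GC content and exon length, Rps27l was at 0.07 and Rpl22l1 at 0.14. The most enriched member there was Rpl28 (1.72 ± 0.16, adjusted p = 7.33e-08, edgeR), with home cage lysates at 14.9, 23.2, 14.1, 31.2 and 31.2 CPM and purified libraries at 84.2, 66.4, 85.8, 63.9 and 87.7 CPM. No purified library came near a lysate.

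Rpl10a was enriched in all 6 tables, by 0.58 ± 0.12 (SE) in the Pvalb 15 min set up to 1.56 ± 0.17 in the Sst 15 min set. The paralog pairs differed. Rps4x was 1.07 ± 0.10 higher in Pvalb purified RNA at 60 min while Rps4l was at 0.20 ± 0.12 and did not pass. Rpl7 was 1.0 ± 0.09 higher and Rpl7l1 0.21 ± 0.07. Rpl22 was 0.47 ± 0.07 higher and Rpl22l1 1.63 ± 0.19. Differences between the genes of a pair were not tested. Rpsa, a small-subunit protein also known as a laminin receptor, was enriched in all 6 tables, by 0.23 ± 0.10 in the Pvalb 60 min set to 1.48 ± 0.19 in the Sst 60 min set. Rpl10, which closes the late assembly of the large subunit, was enriched in 5 tables and was at −0.01 ± 0.09 in the Pvalb 60 min set. Rps6 was enriched in 5 tables and was at 0.20 ± 0.10 in the Sst 60 min set, where it did not pass.

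Other parts of the ribosome and its supply were counted from lists of related genes. Over all genes tested, 21.3% to 31.2% were higher in purified RNA, and 28.2% were lower in the Sst 60 min set. Fau, which encodes a ribosomal protein fused to a ubiquitin-like sequence, and Rack1, a small-subunit scaffold, were higher in purified RNA in all 6 tables. Of the 77 genes of mitochondrial ribosomal proteins, which build the ribosome of mitochondria, 67 of 76 and 68 of 77 were higher in the Camk2a sets. The counts were 66 and 70 in the Pvalb sets and 72 and 47 in the Sst sets, with 13 lower in the Sst 60 min set. Of 17 translation factors and related genes whose mRNAs have TOP tracts, 9 to 16 were higher and at most 3 lower. Of 28 ribosome assembly genes 12 to 16 were higher and 1 to 9 lower. Most mitochondrial ribosomal genes were thus enriched as well.

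Whether the enrichment itself differed between lines was tested in home cage libraries as the difference of the 2 purified-minus-lysate folds. At 60 min it was larger in the Camk2a than in the Pvalb line for 48 of 81 members (16.5% of all genes) and smaller for 1 (25.6%), and the median difference was 1.12 against −0.46 over all genes. Rpl41, the smallest ribosomal protein, led with 2.47 ± 0.36 (SE). Its Camk2a purified libraries had 436, 637, 346 and 345 CPM against 162, 93.0, 179 and 207 CPM in lysates. In the Pvalb line the purified libraries lay at 66.9, 95.7 and 120 CPM (lowest, median and highest of 6) and the lysates at 161, 214 and 238 CPM. Purified RNA was thus above the lysates in 1 line and below them in the other. Rps19 (2.34 ± 0.34), Rps18 (2.28 ± 0.34) and Rps15 (2.27 ± 0.35) followed, and Rpl39 was the member with the smaller enrichment (−1.71 ± 0.67, adjusted p = 0.0406, edgeR). Among the 41 members of higher GC content 33 were more enriched in the Camk2a line, with a median difference of 1.53. Among the 40 of lower GC content 15 were more and 1 less, with a median of 0.27. Mean GC slopes of the purified home cage libraries were 0.36 in the Camk2a and −0.53 in the Pvalb line. The part of this GC lean in the differences was not tested.

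Between the Pvalb and Sst lines at 60 min, 41 members were less enriched in the Pvalb line (24.4% of all genes) and 15 more (26.9%), with a median of −0.79 against 0.04. Rps19 had −2.29 ± 0.32 (SE), and all 3 stalk genes were lower: Rplp0 −1.70 ± 0.29, Rplp2 −1.55 ± 0.30 and Rplp1 −1.26 ± 0.25. On the other side stood Rpl39 (2.75 ± 0.64), Rps27l (1.88 ± 0.44), Rpl5 (1.58 ± 0.36), which carries 5S RNA into the ribosome, and Rpl23 (1.57 ± 0.36). With GC and length offsets Rps27l changed sign, as given below. The own-class scores of the Sst purified home cage libraries at 60 min ran from −0.52 to 3.81. The differences followed GC content. Among the 41 members of higher GC content 30 were less enriched and 1 more, and among the 40 of lower GC content 11 were less and 14 more. In the Camk2a line 2 members, Rps15a and Rps21, were more enriched than in the Sst line (1.79% of all genes were) and none was less, while 1499 of the 17005 genes tested were less enriched. Neither member was called without the Sst purified libraries whose own-class score was under 1 or with the replicate number as a block. Leaving out 1 library at a time gave 0 to 11 called members.

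At 15 min 14 of 79 members were more enriched in the Camk2a than in the Pvalb line (4.74% of all genes) and none less, with a median of 0.74 against −0.07. Rpl37 led with 1.38 ± 0.34 (SE), and its Camk2a purified libraries had 117, 136 and 152 CPM over lysates of 53.0, 48.6 and 52.2. The Pvalb purified libraries had 95.9, 70.4, 72.6 and 76.6 CPM over lysates of 73.9, 90.3 and 58.6, so the fractions overlapped there. Without the 1 Pvalb lysate that matched its group but no single sample, 4 members were called, and leaving out other single libraries gave 5 to 20. With the replicate number as a block none was called. The Pvalb and Sst lines had no member called (0.00616% of all genes lower), although all 79 differences were negative, with a median of −0.75, and 47 members had an unadjusted p under 0.05 beside 9.94% of all genes. DESeq2 called 9 (1.52% of all genes). The Camk2a and Sst lines had none called by edgeR (6.99% of all genes), 4 by DESeq2 (12.6%) and 5 at an unadjusted p under 0.05 (23.0%).

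Exposure to the box or to shock left the family's lysate levels without a called member. With the 3 lines fitted together, 0 of 79 members at 15 min and 0 of 81 at 60 min passed in shock against home cage, where 0.118% and 0.00% of all genes did, and none passed in box against home cage (0.0124% and 0.00%) or shock against box (0.00% in both). At an unadjusted p under 0.05 there were 4 members at 15 min and 0 at 60 min for shock against home cage (5.74% and 3.34% of all genes), 3 and 1 for box against home cage (3.50% and 1.35%), and 0 and 0 for shock against box (1.69% and 0.994%). DESeq2 called 0 in all 6 lysate comparisons. The medians of the 6 lysate contrasts lay between −0.04 and 0.10. Rps28 had the smallest p at 15 min, with 0.28 ± 0.13 (SE, adjusted p = 0.790, edgeR), and Rpl36al at 60 min, with 0.14 ± 0.08. No line's lysates taken alone gave a called member.

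In purified RNA the Pvalb line at 60 min had the most called members. After shock 46 of 81 members rose against home cage and 4 fell, where 19.7% of all genes rose and 15.3% fell, and the median member changed by 0.47 against −0.06. By subunit, 26 rose and 2 fell of the 46 large-subunit genes, 17 rose and 2 fell of the 32 small-subunit genes, and all 3 stalk genes rose. The family's share went from 0.81% ± 0.03 (SD, n = 6) to 1.04% ± 0.12 (SD, n = 6). The highest home cage library, at 0.841%, was below the lowest shock library, at 0.920%. For 39 members every shock library was above every home cage library in CPM, as it was for 7.90% of all genes.

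The stalk genes rose together. Rplp0 had 72.1, 93.4 and 103 CPM (lowest, median and highest of 6) in home cage and 112, 204 and 233 CPM after shock, a log2 change of 1.01 ± 0.18 (SE). Rplp2 had 55.5, 62.0 and 75.6 CPM in home cage and 91.9, 140 and 161 CPM after shock, a change of 1.0 ± 0.16. Rplp1 changed by 0.87 ± 0.15. For Rplp0 and Rplp2 the groups did not overlap, and the 4 box libraries reached into both ranges, at 153, 97.6, 173 and 130 CPM for Rplp0. The lysates of the same set were at 161, 177 and 220 CPM for Rplp0 in home cage and 123, 182 and 215 CPM after shock, and the groups overlapped. The change with GC and length offsets was 0.75 for Rplp2, 0.27 for Rplp0 (adjusted p = 0.0494, edgeR) and 0.08 for Rplp1, which then did not pass (adjusted p = 0.703).

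**Figure D3:**
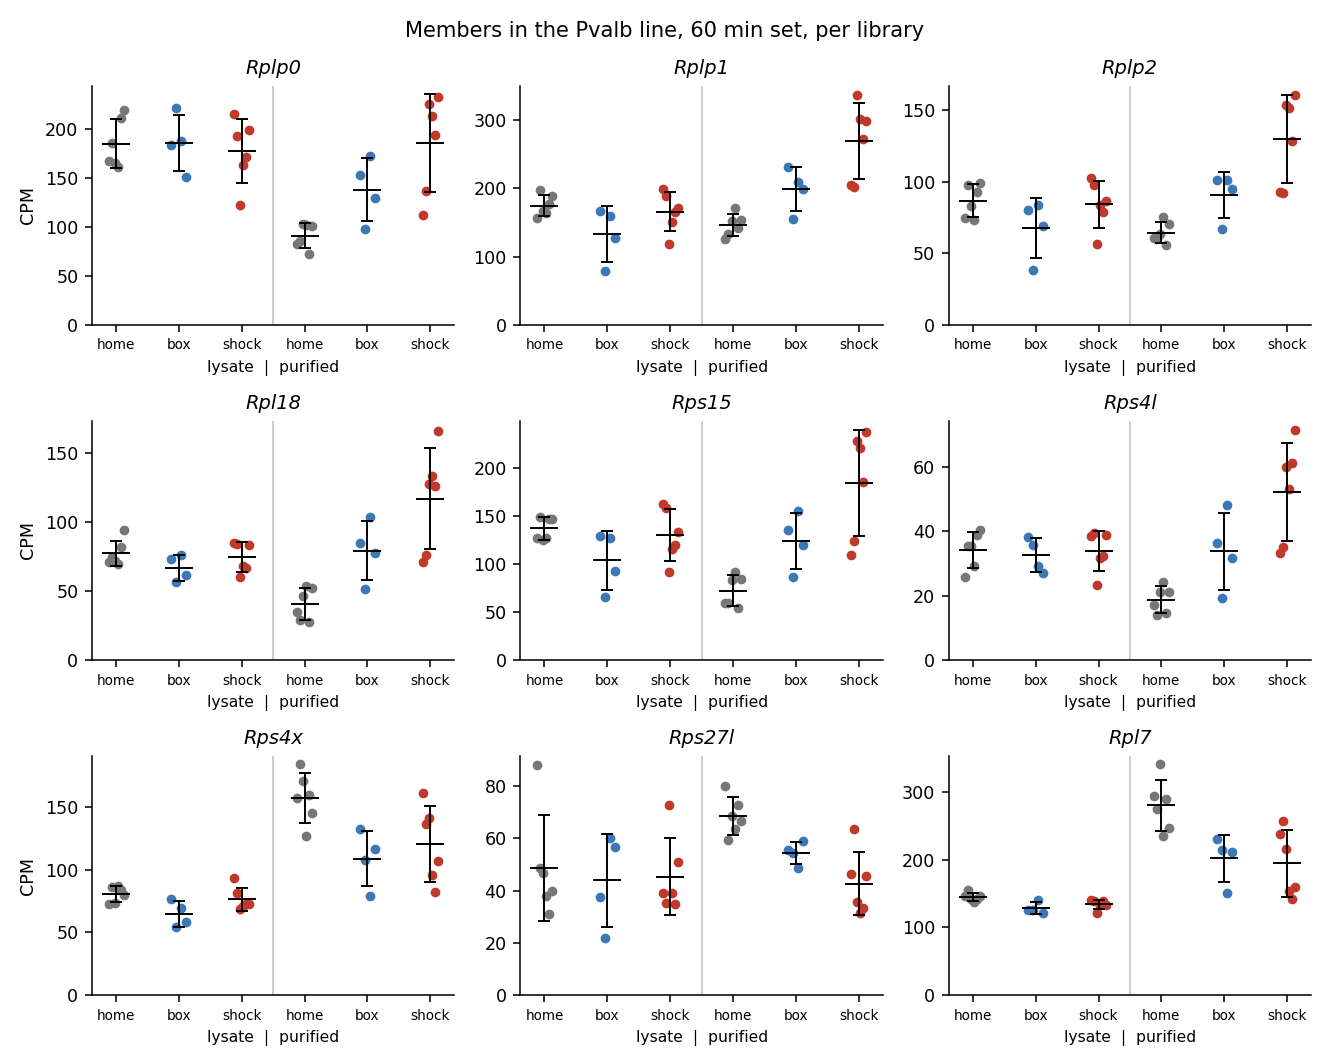
CPM (vertical axis) of 9 members in each library of the Pvalb 60 min set, lysate left and purified right of the line; bars are the mean and SD. Purified shock libraries lie above home cage for the stalk genes, Rpl18, Rps15 and Rps4l, and mostly below for Rps27l and Rpl7, while the lysates overlap.

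Rpl18, a large-subunit protein, rose by 1.51 ± 0.23 (SE, adjusted p = 0.000594, edgeR), from 27.6, 40.7 and 53.9 CPM to 71.2, 127 and 166 CPM (lowest, median and highest of 6). Its box libraries had 84.9, 51.4, 103 and 77.5 CPM. Rps15, whose tail reaches the decoding site, rose by 1.34 ± 0.21, from 54.0, 71.5 and 91.4 CPM to 109, 204 and 237 CPM. Neither gene's groups overlapped. The smallest p values also included Rpl36 (1.53 ± 0.23) and Rps4l (1.47 ± 0.23). Rps4l went from 14, 19.1 and 24.4 CPM to 33.4, 56.6 and 71.5 CPM, while its paralog Rps4x had 127, 159 and 184 CPM in home cage and 82.1, 122 and 162 CPM after shock (−0.39 ± 0.17, adjusted p = 0.0851, edgeR). The members of this pair had opposite signs without, but not with, GC and length offsets, where Rps4l was at 0.50 and Rps4x at 0.06. Their difference was not tested. With the same offsets Rpl18 was at 0.87, Rpl36 at 0.49 and Rps15 at 0.35, and all 3 still passed. Rpl10a rose by 0.85 ± 0.18, from 17.7, 18.7 and 19.2 CPM to 21.4, 35.8 and 42.7 CPM, without overlap, but with the offsets it was at 0.08 and did not pass (adjusted p = 0.764, edgeR).

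The 4 members that fell were Rps27l (−0.70 ± 0.16, SE), Rpl5 (−0.55 ± 0.18), Rpl7 (−0.53 ± 0.17) and Rps27a (−0.51 ± 0.18), the last made as a fusion with ubiquitin. Rps27l had 59.2, 67.5 and 80.1 CPM in home cage and 31.4, 40.4 and 63.6 CPM after shock, so that the highest shock library reached into the home cage range. Rpl7 had 235, 282 and 342 CPM against 142, 188 and 258 CPM, and overlapped likewise. Rps6, whose phosphorylation is a standard readout of mTOR signalling, was at −0.15 ± 0.13 (adjusted p = 0.395, edgeR). With GC and length offsets Rps27l was at 0.03 and Rpl5 at 0.07, so neither kept its sign.

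Among the members that rose, changes ran from 0.32 for Rpl35 to 1.63 for Rpl34, with Rpl41 at 1.24 ± 0.20 (SE) and Rpsa at 0.93 ± 0.17. With the offsets Rpl35 was at −0.46 and did not pass (adjusted p = 0.0999, edgeR), and Rpl34, Rpl41 and Rpsa were at 1.45, 0.70 and 0.57. The other 31 members did not pass. Of these 31, Rpl22l1 had −0.66 ± 0.29, Rpl39 −0.66 and Rpl23 −0.38, all 3 among the members most enriched in Pvalb purified RNA, and Rpl30 had 0.85. With the offsets Rpl22l1 was at −0.02, Rpl39 at −0.47 and Rpl23 at −0.46, and none of these 3 passed. Rpl30 was then at 1.58 and passed (adjusted p = 0.0383, edgeR). Rpl3, at the peptidyl transferase centre, was at −0.04 and Rpl22 at 0.01 ± 0.12.

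Which members rose went with their base composition. Of the 41 members with exon GC content at or above the median of 51.8%, 34 rose and none fell, with a median change of 0.89. Of the 40 below it, 12 rose and 4 fell, with a median of −0.01. Spearman's rank correlation between GC content and change over the 81 members was 0.74, and between log length and change −0.15, again a description over genes that share libraries. The libraries' own mean GC slopes were −0.53 ± 0.08 (SD, n = 6) in home cage, −0.26 ± 0.32 (SD, n = 4) in box and 0.29 ± 0.41 (SD, n = 6) after shock. With GC and length offsets 38 members rose and none fell, with a median of 0.27, against 0.02 over all genes. The shares of all genes risen and fallen given above belong to the fit without offsets.

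**Figure D4:**
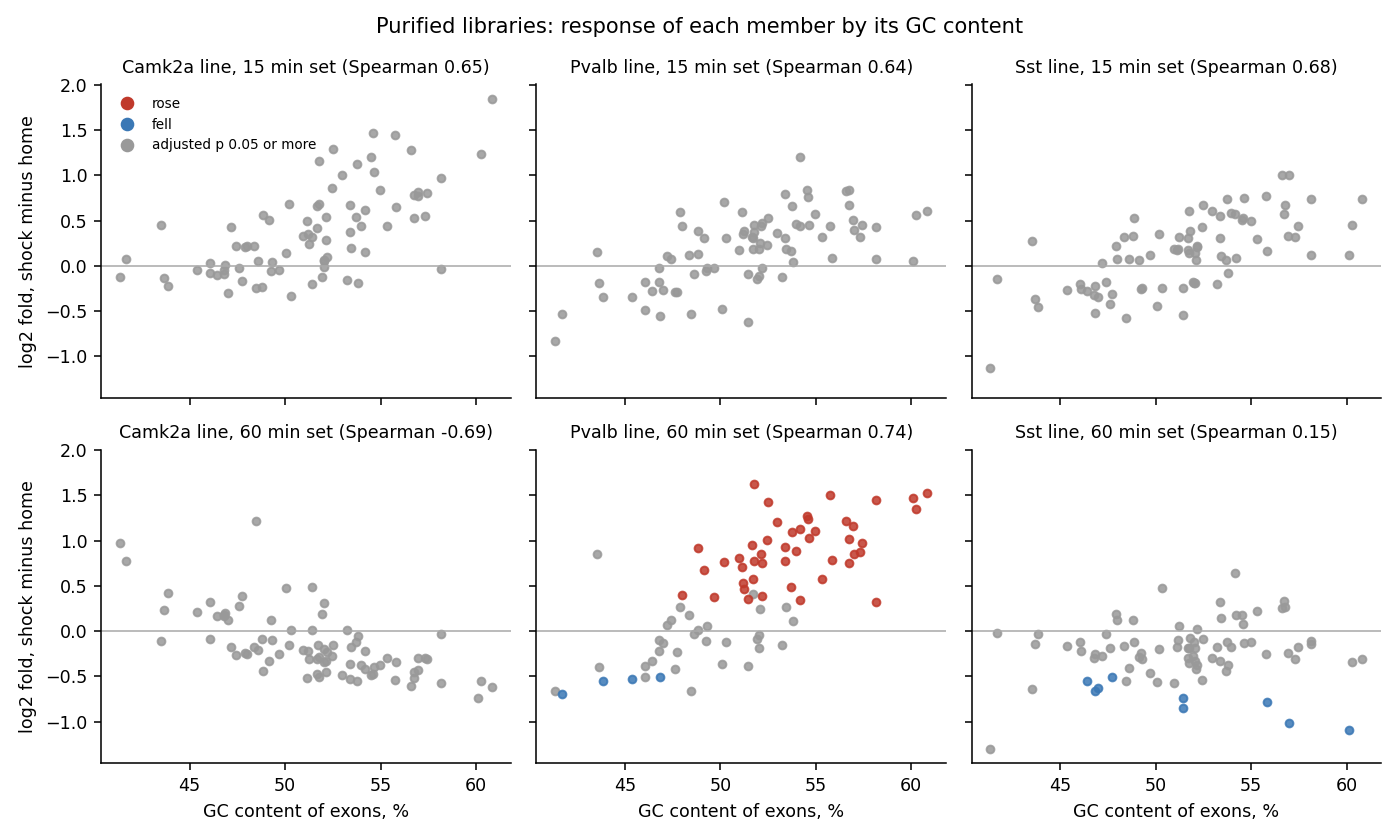
Log2 change from home cage to shock in purified RNA (vertical axis) against exon GC content in percent (horizontal axis) for every member, 1 panel per line and set; red rose, blue fell, grey did not pass. Spearman's rank correlation is 0.64 to 0.74 in 4 panels, −0.69 in the Camk2a 60 min set and 0.15 in the Sst 60 min set.

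By start sequence, the median change was 0.48 for the 26 members with a run of 8 or more C and T bases and 0.45 for the 34 without one. In the Camk2a 15 min set the medians after shock were 0.25 with and 0.35 without such a run. In purified against lysate RNA they were 1.35 and 1.5 in the Camk2a 15 min set, 1.21 and 1.15 in the Camk2a 60 min set and 0.53 and 0.48 in the Pvalb 60 min set. For the Pvalb minus Sst difference in home cage enrichment at 60 min they were −0.87 and −0.66. Differences between these medians were not tested. Single members of both kinds went either way. Rplp0, Rps15 and Rps3, each with a short run, rose by 1.01, 1.34 and 0.91, and Rpl5, with a run of 3 bases, fell. Rpl34, with a run of 20 bases, and Rpl18 and Rplp2, each with 10, rose. Rpl15, with a run of 17 bases, was at −0.36 ± 0.14 (SE, adjusted p = 0.0501, edgeR) and Rps6, with 10, at −0.15.

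Genes of the related lists were also called in the same set, where 19.7% of all genes rose and 15.3% fell. The part of the libraries' GC lean in these counts was not tested. Fau (1.39 ± 0.22, SE) and Rack1 rose. Among the 77 genes for mitochondrial ribosomal proteins the counts were 34 up and 6 down, and the smallest p values included Mrpl4 (1.49 ± 0.22), Mrps11 (1.34 ± 0.19) and Mrpl12 (1.14 ± 0.17). Of the 17 factors with TOP mRNAs 5 rose, with Eef2, the translocation factor, at 1.21 ± 0.19, and 5 fell. Of 28 assembly genes 13 rose and 4 fell, and of 15 regulators of TOP mRNAs, among them Larp1 and mTOR pathway genes, 4 rose and 4 fell.

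Cell type markers were also called in these libraries, beside the same 19.7% risen and 15.3% fallen over all genes. Of the 7 parvalbumin markers 3 rose and none fell, and their summed level went from 1404 to 1907 CPM in home cage to 1687 to 2207 CPM after shock. Of 7 general GABA markers 3 fell, with sums of 4098 to 5693 and 2825 to 5162 CPM. Of 7 astrocyte markers 4 fell and 1 rose, with sums of 1406 to 1982 and 805 to 1545 CPM. Of the 6 somatostatin markers tested 2 rose, with sums of 1262 to 1997 and 2027 to 3215 CPM over the list of 7, of which 1 was at 0 in a shock library. No marker of the parvalbumin, GABA and astrocyte lists was at 0. Their part in the members' changes was not tested.

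For box against home cage in the same set no member was called by edgeR, where 0.00% of all genes passed either way. DESeq2 called 0 members too, and 30 had an unadjusted p under 0.05 beside 11.3% of all genes. For shock against box none was called by edgeR (0.00%), 14 by DESeq2 (3.65% of all genes), and 46 had an unadjusted p under 0.05 beside 20.5% of all genes. Of the 81 members 70 had a positive change, the median was 0.36, and without shock replicate 2 there were 18 called members. Shock and box libraries were thus not separated by edgeR's test with all libraries in the fit.

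The shock response in purified RNA exceeded that of the lysates for 36 members and fell short for none in the Pvalb 60 min set, where it did so for 13.0% of all genes, with a median difference of 0.47 against −0.04. Rpl18 led with 1.48 ± 0.26 (SE), then Rpl8 (1.12 ± 0.21), Rpl36 (1.55 ± 0.30) and Rps4l (1.40 ± 0.27). With GC and length offsets 11 members were called. With the replicate number as a block none was called. In the other 5 tables edgeR called no member, with 0.00638% (Camk2a) and 0.00% (Pvalb) of all genes at 15 min, 0.00% (Camk2a) at 60 min, and 1.58% and 0.0415% in the Sst sets. DESeq2 called 3 members in the Sst 60 min set (1.66% of all genes) and 0 in the other 4. At an unadjusted p under 0.05 there were 3 members (4.73% of all genes) and 4 (14.4%) in the Camk2a sets, 5 (7.76%) in the Pvalb 15 min set, and 1 (17.9%) and 13 (10.4%) in the Sst sets. In the Sst 60 min set the median was −0.50 and 7 of 81 differences were positive.

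In the Sst line at 60 min 9 members fell after shock and none rose, where 2.15% of all genes fell and 382 of the 16301 tested rose, with a median of −0.19 against 0.04. Rpl23 had 113, 154, 114, 152 and 134 CPM in home cage, 130, 124, 117 and 162 CPM in box, and 79.6, 89.2, 77.8 and 69.0 CPM after shock. All 4 shock libraries were below all others, and the log2 change was −0.85 ± 0.18 (SE, adjusted p = 0.0230, edgeR). Rps27a (−0.66 ± 0.15), Rpl36al (−0.74 ± 0.17) and Rpl35a (−0.51 ± 0.12) followed. When GC and length offsets were used, 11 members fell and 4 rose, the latter Rpl13, Rps2, Rpsa and Rplp0, while Rpl23 (−0.75, adjusted p = 0.0616, edgeR) and Rps27a (−0.52, adjusted p = 0.0515) did not pass. With the replicate number as a block no member was called.

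Rps4l, which rose in the Pvalb line, fell by −1.09 ± 0.27 (SE) here, from 75.3, 48.1, 60.4, 60.5 and 80.9 CPM to 46.8, 22.9, 42.1 and 17.2 CPM, without overlap. Rpl10a fell by −1.01 ± 0.25, with 63.6, 25.4, 51.3, 29.8 and 42.3 CPM in home cage and 25.8, 17.2, 23.2 and 22.1 CPM after shock. Only the lowest home cage library reached into the shock range. Rpl38 had −0.79 ± 0.19. The stalk genes did not pass, with Rplp0 at 0.26 ± 0.18 and Rplp2 at −0.54 ± 0.23. Both passed with GC and length offsets, in opposite directions, Rplp0 at 0.36 (adjusted p = 0.0422, edgeR) and Rplp2 at −0.48 (adjusted p = 0.0403).

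Against box, 12 members fell (4.56% of all genes) and none rose, with a median of −0.36, and Rpl36al had the smallest p (−0.92). These are the libraries with low own-class scores. The 7 somatostatin markers summed to 479 to 7818 CPM in home cage and 210 to 489 CPM after shock, the 7 GABA markers to 706 to 2759 and 524 to 583 CPM, and the 7 oligodendrocyte markers to 2365 to 5515 and 6985 to 11072 CPM. No marker of these lists was at 0. Because all 4 shock libraries shared this make-up, the shock condition and the purity of the pull-down cannot be told apart in this set. The calls were also sensitive to single libraries: without home cage replicate 5 or shock replicate 4 no member was called against home cage, 2 were called without home cage replicate 2 or 4, and 1 without shock replicate 2 or 3. Against box, leaving out box replicate 4 or shock replicate 4 gave 0, and leaving out shock replicate 2 gave 5.

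No member passed after shock in the other purified sets. In the Camk2a 60 min set the median change was −0.23, 16 members had an unadjusted p under 0.05 (24.9% of all genes) and DESeq2 called 5 (12.8%), while edgeR called 0 beside 2.30% of all genes. Rplp0 came closest, at −0.52 ± 0.15 (SE, adjusted p = 0.0588, edgeR), with 247, 230, 207 and 203 CPM in home cage and 132, 165, 148, 130 and 173 CPM after shock. Its groups did not overlap, but with GC and length offsets it was at −0.08 (adjusted p = 0.873, edgeR). Replicate 2 of the shock group stood apart from the other 4, with a family share of 2.14% beside 0.946% to 1.27%, and without it 23 members were called, all lower. Without shock replicate 3 there were 6. The GC slopes were 0.36 ± 0.11 (SD, n = 4) in home cage and −0.18 ± 0.28 (SD, n = 5) after shock, the reverse of the Pvalb set.

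In the Camk2a 15 min set the median change was 0.32, 22 members had an unadjusted p under 0.05 (8.86% of all genes), DESeq2 called 2 (0.497%) and edgeR 0, beside 0.00% of all genes. Rpl36 had 23.94, 19.15 and 22.03 CPM in home cage and 29.61, 31.69, 115.3 and 140.2 CPM after shock. Rpl18 had 28.18, 25.92 and 30.33 CPM in home cage and 30.52, 40.89, 109.2 and 130.8 CPM after shock. For both genes shock replicates 3 and 4 stood far above the other shock libraries. In the Pvalb 15 min set the median was 0.23 and 23 members had an unadjusted p under 0.05 (15.6% of all genes), DESeq2 called 5 (2.26%) and edgeR 0 (0.00%). Rps26, at the mRNA exit, led with 0.71 ± 0.17 (adjusted p = 0.239, edgeR), from 62.4, 50.4, 52.4 and 47.9 CPM to 86.9, 104, 127, 86.9 and 67.7 CPM. In the Sst 15 min set the median was 0.16 and 5 members had an unadjusted p under 0.05 (21.8% of all genes), while edgeR (1.21% of all genes) and DESeq2 called 0.

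Box against home cage gave no called member in the other 5 purified sets by edgeR (0.00% of all genes in each) or DESeq2. At an unadjusted p under 0.05 there was 1 member in the Sst 15 min set (4.24% of all genes) and 0 in the Camk2a sets (2.73% at 15 min and 2.0% at 60 min), the Pvalb 15 min set (1.68%) and the Sst 60 min set (0.485%). Shock against box gave 0 by edgeR in both Camk2a sets, the Pvalb 15 min set and the Sst 15 min set (0.00% of all genes in each). DESeq2 called 9 members in the Pvalb 15 min set (3.07%) and 0 in the other 3. At an unadjusted p under 0.05 there were 26 (9.19%) and 5 (15.1%) in the Camk2a sets, 28 (15.6%) in the Pvalb 15 min set and 3 (8.63%) in the Sst 15 min set.

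**Figure D5:**
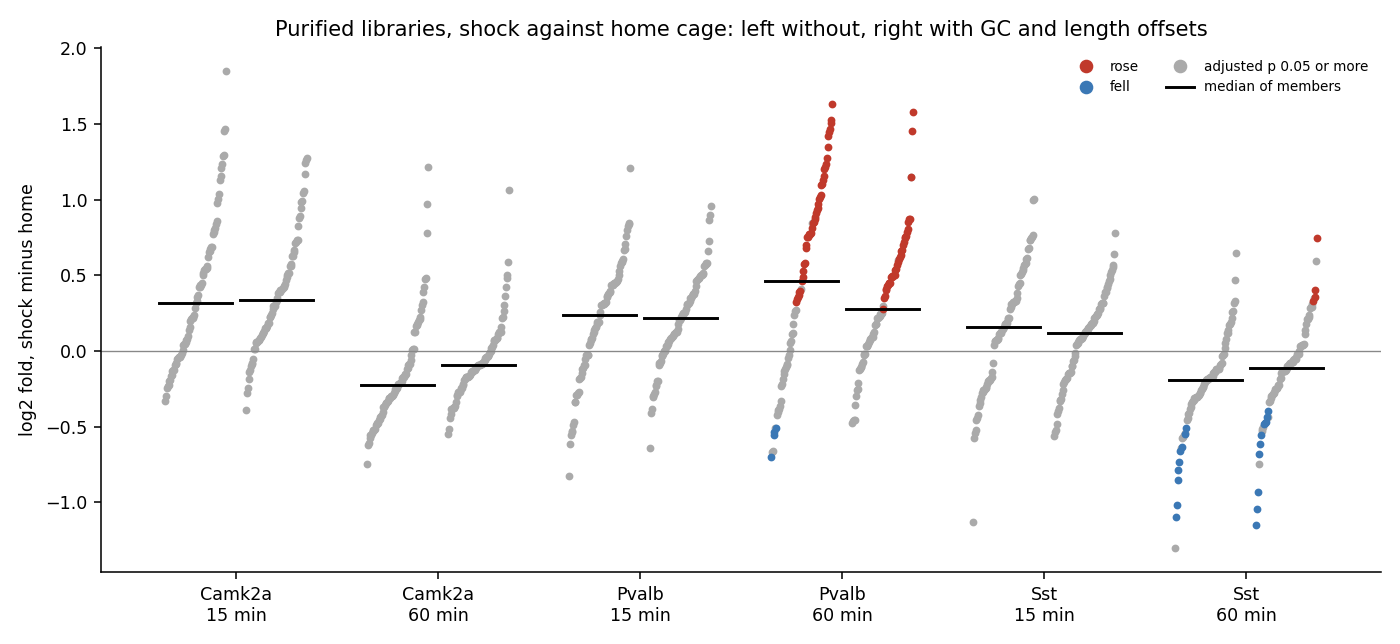
Log2 change from home cage to shock in purified RNA (vertical axis) for every member in each line and set, left strip without and right strip with GC and length offsets; red rose, blue fell, grey did not pass, and black lines are medians. In the Pvalb 60 min set the median goes from 0.47 to 0.27 with the offsets.

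The differences between lines and times were tested directly. At 60 min the shock response of 42 members was higher in the Pvalb than in the Camk2a line (20.8% of all genes) and that of 6 was lower (16.8%), with a median difference of 0.65 against −0.01. Rplp0 led with 1.53 ± 0.25 (SE, adjusted p = 4.10e-05, edgeR), followed by Rpl29 (2.02 ± 0.34) and Rpl34 (2.13 ± 0.36). Rps27l (−1.46 ± 0.30) had the smallest p among the 6 lower members, which also held Rpl5, Rpl7, Rpl15, Rpl22l1 and Rpl39. With GC and length offsets 28 were higher and 1 lower.

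Against the Sst line 37 members were higher in the Pvalb line (13.5% of all genes) and none lower, with a median of 0.65 against 0.01. Rps4l (2.60 ± 0.40, SE) and Rpl10a (1.91 ± 0.30, adjusted p = 2.91e-05, edgeR) led. The Sst side of this difference rests on the 4 shock libraries of low own-class score. Both comparisons use the same Pvalb libraries.

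Between the sets, the shock response of the Camk2a line was lower at 60 than at 15 min for 13 of 79 members (4.63% of all genes) and higher for none, with a median of −0.62 against −0.02. Rplp0 (−1.37 ± 0.28, SE, adjusted p = 0.0182, edgeR), Rpl36 (−2.56 ± 0.59) and Rpl18 (−2.08 ± 0.49) led. For Rpl36 and Rpl18 the 15 min side rests mainly on shock replicates 3 and 4, as given above. With GC and length offsets no member was called, and the count went to 0 without 15 min home cage replicate 1 and to 32 without 60 min shock replicate 2. In the Pvalb line none was called by edgeR (0.00% of all genes), 1 by DESeq2 (1.43%) and 12 at an unadjusted p under 0.05 (9.20%). In the Sst line none was called by edgeR (0.00%), 1 by DESeq2 (3.58%) and 13 at an unadjusted p under 0.05 (15.5%). The 2 sets were deposited as separate tables, so time and set cannot be told apart.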

How the data were processed

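Total lysate and purified RNA of mouse dorsal hippocampus was sequenced after poly(A) selection with Nextera XT libraries, per the labels' protocols. STAR 2.7.7a, featureCounts, DESeq2 and GRCm38 are named in the submitters' processing notes. The authors deposited raw read counts per gene in 6 tables, 1 per line and set, of which 151 columns matched the labels; 3 of these matched a group but no single sample, and 2 samples had no column. Here, counts were tested with edgeR 4.0.16 (filterByExpr, TMM factors, trended dispersion, robust quasi-likelihood fit, Benjamini-Hochberg adjusted p under 0.05), with R 4.3.3. DESeq2 1.42.0 was an alternative, as were other factors, no filter, GC and length offsets, the replicate block and leaving out libraries. CPM is a gene's counts scaled to a fixed library total, and precision follows its depth of 9043042 to 397228206 counts. A GC value was known for 98.3% of symbols and all 81 members. In simulated counts for Pvalb 60 min shock against home cage (15930 genes), 97 genes were changed by 1 log2 unit and 99 by 0.6. Of these, 38.1% and 10.1% were recovered. Genes were drawn independently and without a GC lean, and far fewer were changed than were called in the data (19.7% risen and 15.3% fallen). The recovered shares therefore do not say how many changes of that size the comparison itself finds.

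Named members were, per comparison, the 4 risen and 4 fallen with the smallest p, or the member with the smallest p where none passed, the 3 highest and 3 lowest folds in purified against lysate RNA, the 5 highest levels per length, the stalk genes, Rpl10a, Rpl10, Rps6, Rpsa, Rpl41, Rps27a and paralog pairs. Other members were named after their values were seen. The members and lists were chosen with earlier results of these data known. The design text calls replicates biological. Some members that this rule names are not reported here.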

Additional observations from a re-analysis of the deposited data

Results flagged for a closer look

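The family share of the Camk2a 60 min purified shock library of replicate 2 was 2.14%, far above the other 4 libraries of its group. The Sst 15 min purified shock library of replicate 3 had 0.996%, below the other 4. Of 27 groups of 4 or more libraries examined in this way, chance alone marks about 1 in 20.

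Effects differed between lines, fractions or times in several tests of the difference itself. The shock response of 36 members was larger in purified than in lysate RNA in the Pvalb 60 min set, as it was for 13.0% of all genes. In home cage at 15 min, 14 members were more enriched in the Camk2a than in the Pvalb line (4.74% of all genes). At 60 min the enrichment differed for 49 members between Camk2a and Pvalb (16.5% of all genes were higher and 25.6% lower in Camk2a) and for 56 between Pvalb and Sst (26.9% higher and 24.4% lower in Pvalb), and 2 were more enriched in Camk2a than in Sst (1.79%). With the replicate number as a block the counts of 36, 14 and 2 went to 0. The shock response in purified RNA was lower at 60 than at 15 min in the Camk2a line for 13 members (4.63% of all genes). At 60 min it differed for 48 between Pvalb and Camk2a (20.8% higher and 16.8% lower in Pvalb), and 37 were higher in Pvalb than in Sst (13.5%).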

How the results depend on the processing

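With RLE factors and with every symbol of the pattern, all 47 counts of called members stayed within 1.5 times. For fits with offsets, with the replicate block or without some libraries, the share of all genes called is not given here. Counts of members from those fits cannot be set against it. DESeq2 gave other counts in 14 comparisons. For shock against home cage it called 2 (Camk2a 15 min), 5 (Camk2a 60 min) and 5 (Pvalb 15 min). For shock against box it called 9 (Pvalb 15 min), 14 (Pvalb 60 min) and 19 (Sst 60 min). It called 3 for the shock response of purified minus lysate RNA in the Sst 60 min set, 25, 4 and 9 for home cage enrichment at 15 min (Camk2a minus Pvalb, Camk2a minus Sst, Pvalb minus Sst), and 5 for Camk2a minus Sst at 60 min. Between times it called 20 (Camk2a), 1 (Pvalb) and 1 (Sst).

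GC and length offsets gave 11 for the Pvalb and 8 for the Sst shock response of purified minus lysate RNA at 60 min, 15 (4 up, 11 down) and 21 (2 up, 19 down) for Sst 60 min shock against home cage and box, and 1 and 10 for Camk2a minus Sst enrichment at 15 and 60 min. They gave 0 for the Camk2a times and 29 for Pvalb minus Camk2a. With them several members changed sign, among them Rps27l to 0.0303, Rpl5 to 0.0724, Rps4x to 0.06 and Rpl35 to −0.46 after Pvalb 60 min shock, Rplp0 to −0.11 in Camk2a 15 min enrichment, Rps27l to 0.0725 and Rpl22l1 to 0.14 in Sst 60 min enrichment, Rps27l to −0.25 in Pvalb minus Sst enrichment, and Rpl5 to 0.0525 and Rpl7 to 0.0404 in Pvalb minus Camk2a shock response. Rpl35 went to −0.59 in Sst 60 min enrichment, where it was then called lower. The cause of these changes was not tested.

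The labels do not say that a lysate and a purified library of 1 number come from 1 animal, and no table had every same-numbered pair above a correlation of 0.1, so the numbers were taken as only shared. As a hint from the data, the library correlated best with its own number in the other fraction for 19 of 20 libraries (Camk2a 15 min), 17 of 24 (Camk2a 60 min), 20 of 22 (Pvalb 15 min), 10 of 28 (Pvalb 60 min), 14 of 24 (Sst 15 min) and 10 of 26 (Sst 60 min). With the replicate block 0 members were called in the Pvalb 60 min shock response of purified minus lysate RNA, Sst 60 min shock against home cage, Camk2a minus Pvalb enrichment at 15 min and Camk2a minus Sst at 60 min. Without a filter the Camk2a times gave 8. Without the columns matched only to a group, an alternative chosen after seeing the data, Camk2a minus Pvalb at 15 min gave 4. Without Sst purified libraries of low own-class score, Camk2a minus Sst at 60 min gave 0.

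Leaving out 1 library at a time gave 0 to 23 for Camk2a 60 min shock against home cage, 0 to 18 for Pvalb 60 min shock against box, 0 to 8 and 0 to 12 for Sst 60 min shock against home cage and box, and 0 to 1 for the Sst 60 min shock response of purified minus lysate RNA. It gave 4 to 20, 0 to 3 and 0 to 5 for enrichment at 15 min (Camk2a minus Pvalb, Camk2a minus Sst, Pvalb minus Sst), 0 to 11 for Camk2a minus Sst at 60 min, and 0 to 32 and 0 to 1 for the Camk2a and Sst times.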
